A study of Arabidopsis thaliana with 8 samples.

Results

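The transcripts of 10 genes that govern how an Arabidopsis seedling responds to light were followed by whole-seedling RNA-seq: the bZIP factors HY5 and HYH, the repressors COP1, SPA1 and DET1, the transcription factors HFR1 and LAF1, and the B-box factors BBX20, BBX21 and BBX22. They were chosen by name, by locus tag, and make up 10 of the 26987 gene entries measured. LAF1 is listed under the name MYB18, BBX21 under STH2, BBX22 under LZF1 and BBX20 under its locus. All 10 had values above 0 in every library, and no other entry overlapped any of them.

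There were 8 libraries, 1 per condition, so the comparisons carry no replicate check and no test, standard error or p-value is given. All plants were of the Col-0 ecotype. DAYi seedlings carry a dexamethasone (DEX) inducible RNAi construct against DAY, a chaperone-like protein gene, and were given 1 µM DEX or ethanol (EtOH) as the mock. The bri1-116 seedlings are null for BRI1, the brassinosteroid receptor, and were set against Col-0 plants without a transgene. Each of these 4 groups was grown for 5 days in the dark or for 9 days with 16 h of light per day, so that light and age cannot be told apart. The dark Col-0 and bri1-116 libraries have titles and genotype labels that name opposite genotypes. They were taken by title, and values that turn or lose a call with the pair exchanged are given beside it. By title, BRI1 itself was at 42.5 FPKM in bri1-116 and 70.6 in Col-0 in the dark, the same direction as the undisputed light pair at 33.3 and 58.1 FPKM. A lower BRI1 level is not particular to bri1-116, however. It was at 43.0 FPKM in dark DAYi labelled DEX against 68.0 with EtOH, and at 30.2 against 54.1 in the light. The DAYi titles carry different numbers for EtOH and DEX that the sources do not explain, and if these are lines then line and treatment cannot be told apart. The light bri1-116 library carries the word "new" in its title, also without explanation. DAY itself was at 6.88 FPKM with DEX and 56.9 FPKM with EtOH in the light. In the dark it was at 34.8 FPKM in the library labelled DEX and 13.4 FPKM in the library with EtOH, against the label. By title, DAY was also higher in dark bri1-116, which carries no RNAi construct, at 32.8 FPKM against 13.8 in Col-0. That direction turns if the pair is exchanged. In the light it was lower in bri1-116, at 41.8 against 73.5 FPKM. FPKM is fragments normalised to transcript length and library depth, so levels of different genes may be set side by side. Since whole seedlings were sampled, fewer cells of a type and less RNA per cell cannot be told apart.

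In darkness the COP1-SPA ubiquitin ligase, acting with the DET1 complex, has HY5, HYH, HFR1 and LAF1 proteins degraded, and the seedling stays etiolated. Light inactivates the ligase, HY5 accumulates and activates genes of greening, flavonoid synthesis and photoprotection. BBX20, BBX21 and BBX22 act alongside HY5 as promoters of this programme, and BBX20, also called BZS1, is known as a gene that the brassinosteroid factor BZR1 represses. Much of this control works on protein stability, which RNA-seq does not measure.

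The bases just upstream of HY5, HYH and BBX20 are shown because these 3 genes were the ones more than 2-fold higher in bri1-116 than in Col-0 in the light. HY5 binds DNA that holds an ACGT core, of which CACGTG (the G-box) is the best known form, and BZR1 binds CGTGTG or CGTGCG. Each line gives the 250 bases before the RefSeq start of the gene in TAIR10.1, read 5′ to 3′ on the strand of the gene, with every match to these letters on either strand in capitals.
HY5, minus strand of chr5:3595074-3595323: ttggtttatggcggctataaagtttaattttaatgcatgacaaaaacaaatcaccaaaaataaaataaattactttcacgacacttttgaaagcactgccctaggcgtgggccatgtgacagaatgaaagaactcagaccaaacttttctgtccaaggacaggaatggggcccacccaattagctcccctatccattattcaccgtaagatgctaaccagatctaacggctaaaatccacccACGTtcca
HYH, plus strand of chr3:6023594-6023843: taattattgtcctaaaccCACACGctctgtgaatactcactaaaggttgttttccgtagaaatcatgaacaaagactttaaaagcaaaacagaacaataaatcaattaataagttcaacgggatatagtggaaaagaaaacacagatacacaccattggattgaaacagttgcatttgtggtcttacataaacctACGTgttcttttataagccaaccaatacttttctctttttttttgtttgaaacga
BBX20, minus strand of chr4:18206685-18206934: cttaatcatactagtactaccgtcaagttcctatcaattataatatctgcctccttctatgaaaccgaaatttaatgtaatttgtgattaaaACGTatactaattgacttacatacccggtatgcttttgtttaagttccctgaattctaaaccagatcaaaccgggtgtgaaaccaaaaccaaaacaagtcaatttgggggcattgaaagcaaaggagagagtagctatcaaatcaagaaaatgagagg
HY5, HYH and BBX20 each held 1 ACGT, at 8 to 5, 55 to 52 and 158 to 155 bases before the start. HYH also held CACACG, the reverse complement of CGTGTG, at 232 to 227 bases before the start. Over the 9 genes whose windows were searched, 6 held an ACGT, 0 held CACGTG and 2 (HYH and COP1) held CGTGTG or CGTGCG. Of 27443 windows of the same length before protein-coding genes, 44.1% held ACGT, 6.49% held CACGTG and 6.71% held CGTGTG or CGTGCG. Every CACGTG also counts as an ACGT. These matches describe the letters only, and no binding was measured.

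HY5 (AT5G11260, chromosome 5 from 3593380 to 3594992 in TAIR10) encodes the bZIP factor through which light-activated genes are switched on. In the dark its level was 71.7 FPKM in Col-0, 79.6 in bri1-116, 54.6 in DAYi with EtOH and 45.2 in the DAYi library labelled DEX. In the light it was 19.5 FPKM in Col-0, 71.1 in bri1-116, 22.5 in DAYi with EtOH and 36.8 in DAYi with DEX. The 2 light control libraries were thus the lowest of the 8, while light bri1-116 lay within the dark range. HY5 was 3.65-fold higher in bri1-116 than in Col-0 in the light and 1.11-fold higher in the dark. With DEX it was 1.63-fold higher than with EtOH in the light, short of 2-fold, and in the dark the library labelled DEX was 1.21-fold lower.

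HYH (AT3G17609, chromosome 3 from 6023866 to 6024698) encodes the closest relative of HY5, a bZIP factor with partly overlapping targets. Its dark levels were 17.7 FPKM in Col-0, 74.0 in bri1-116, 11.5 in DAYi with EtOH and 10.3 in the DAYi library labelled DEX. Its light levels were 86.7 FPKM in Col-0, 342 in bri1-116, 97.9 in DAYi with EtOH and 91.2 in DAYi with DEX. It spanned 33.2-fold over the 8 libraries, the widest range of the 10 genes. In both light conditions bri1-116 stood apart from the other 3 libraries, 4.18-fold above Col-0 in the dark and 3.94-fold above it in the light. The DAYi pair differed little, the library labelled DEX being 1.11-fold lower in the dark and DEX 1.07-fold lower in the light. If the dark Col-0 and bri1-116 libraries are exchanged, the dark log2((FPKM+1)/(FPKM+1)) of HYH turns from 2.004 to -2.004.

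**Figure D1:**
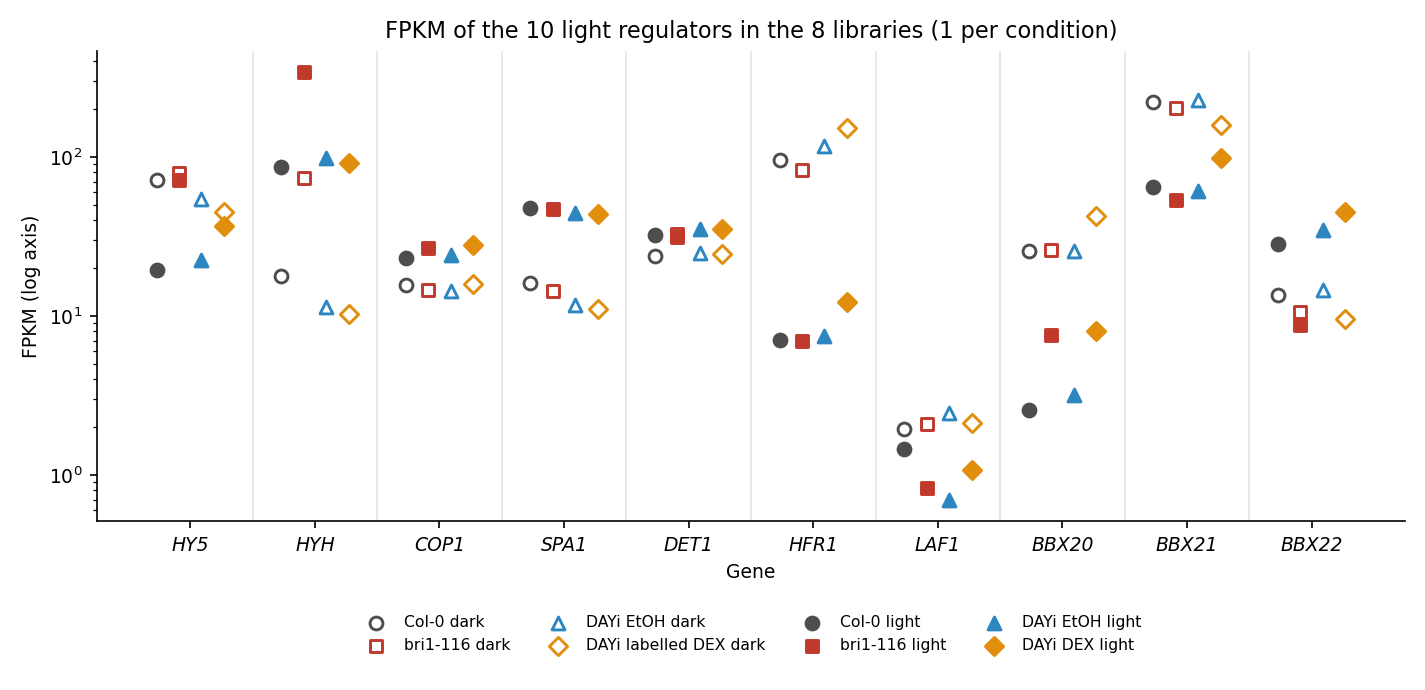
FPKM on a log axis (y) of each of the 10 genes (x), with 1 point per library; open symbols are dark and filled symbols light, and the shape and colour give the plant group. HYH in light bri1-116 is the highest point at 342 FPKM, HFR1 falls into a dark set of 83.2 to 153 and a light set of 6.96 to 12.3 FPKM, and COP1 stays between 14.4 and 27.9 FPKM.

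The repressors moved far less between plant groups. COP1 (AT2G32950, chromosome 2 from 13977933 to 13983535), the E3 ligase subunit that binds HY5, was at 15.7, 14.5, 14.4 and 15.8 FPKM in the dark, in the order Col-0, bri1-116, DAYi with EtOH and DAYi labelled DEX. In the light it was at 23.0, 26.6, 24.3 and 27.9 FPKM in the order Col-0, bri1-116, DAYi with EtOH and DAYi with DEX. The plant groups spread over 1.10-fold in the dark and 1.21-fold in the light, with every light library above every dark library.

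SPA1 (AT2G46340, chromosome 2 from 19022173 to 19027413), the partner that COP1 needs for full activity, was at 16.0, 14.4, 11.8 and 11.1 FPKM in the dark and 47.4, 47.0, 44.4 and 43.7 FPKM in the light, in the same order. Its light levels were between 2.96-fold (Col-0) and 3.94-fold (DAYi with DEX over the dark library labelled DEX) above the dark levels, and none of the 4 comparisons between plants reached 2-fold. DET1 (AT4G10180, chromosome 4 from 6346463 to 6349276), the core of a chromatin-associated complex that supports COP1, had the narrowest range of all, 1.495-fold. It was at 23.7, 32.6, 25.0 and 24.5 FPKM in the dark and at 32.2, 31.5, 35.1 and 35.5 FPKM in the light. Dark bri1-116 reached the light range, so the light and dark libraries overlapped for DET1.

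HFR1 (AT1G02340, chromosome 1 from 465718 to 467844) encodes an atypical bHLH factor that binds PIF factors and is itself degraded through COP1. It was at 96.0, 83.2, 118 and 153 FPKM in the dark and 7.01, 6.96, 7.48 and 12.3 FPKM in the light, in the same order. The dark level was between 11.96-fold (bri1-116) and 15.8-fold (DAYi with EtOH) higher than the light level of the same plant group, with DAYi with DEX at 12.4-fold below the dark library labelled DEX. The library labelled DEX or treated with DEX was the highest of the 4 in each condition, 1.29-fold above EtOH in the dark and 1.64-fold in the light. Neither difference reached 2-fold, and in the light bri1-116 and Col-0 were within 1.01-fold.

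LAF1 (AT4G25560, chromosome 4 from 13052555 to 13053618), an R2R3 MYB factor that acts in phytochrome A signalling, was the lowest of the 10 in every library. It was at 1.93, 2.104, 2.45 and 2.12 FPKM in the dark and at 1.46, 0.830, 0.696 and 1.07 FPKM in the light. The 2 light control libraries differed most, Col-0 being 2.099-fold above DAYi with EtOH, which is more than any of the 4 comparisons between plants gave. With about 35 to 273 fragments behind each value, counting error alone was between 6.05 and 16.9% per library.

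BBX20 (AT4G39070, chromosome 4 from 18204855 to 18206509) was at 25.7, 25.8, 25.4 and 42.3 FPKM in the dark, so that the library labelled DEX stood above 3 nearly equal ones. In the light it was at 2.55 FPKM in Col-0, 7.55 in bri1-116, 3.17 in DAYi with EtOH and 8.03 in DAYi with DEX. Both light controls were low, and bri1-116 and DEX were higher to a like degree, 2.96-fold above Col-0 and 2.53-fold above EtOH. BBX20 was the only gene of the 10 that was more than 2-fold apart in both light comparisons. Of all entries, 12.1% were more than 2-fold higher with DEX and 6.52% in bri1-116. The share higher in both was not counted. The 142 to 941 fragments estimated behind its light values put counting error at 3.26 to 8.38% per library. In the dark the library labelled DEX was 1.66-fold above EtOH and bri1-116 was level with Col-0.

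BBX21 (AT1G75540, chromosome 1 from 28366027 to 28367652), a B-box factor that activates HY5 transcription, was the most abundant of the 10 in all 4 dark libraries, at 222, 204, 229 and 158 FPKM. In the light it was at 64.3, 53.6, 60.7 and 98.4 FPKM. The dark library labelled DEX was the lowest of the dark ones, 1.45-fold below EtOH, and the light library with DEX was the highest of the light ones, 1.62-fold above EtOH. BBX22 (AT1G78600, chromosome 1 from 29567106 to 29568859), a B-box factor that works with HY5, was at 13.5, 10.6, 14.5 and 9.52 FPKM in the dark. In the light it was at 28.4 FPKM in Col-0, 8.72 in bri1-116, 34.5 in DAYi with EtOH and 45.3 in DAYi with DEX. Light bri1-116 was 3.26-fold below Col-0 and lower than all 4 dark libraries, whereas light DEX was 1.31-fold above EtOH.

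Markers of tissue moved with several of the comparisons that follow. All 3 green shoot markers (RBCS1A, LHCB2.1 and LHCB1.3, of which RBCS1A and LHCB1.3 are also counted as HY5 targets later) were lower in both DAYi comparisons and higher in dark bri1-116, and their summed level was 4691, 20250, 4863 and 1326 FPKM in the dark and 49156, 23622, 43834 and 9042 FPKM in the light, in the order Col-0, bri1-116, DAYi with EtOH and DAYi labelled or treated with DEX. PORA, the protochlorophyllide reductase of etiolated cotyledons, was at 402, 1586, 488 and 62.8 FPKM in the dark and at 0.0471 to 1.96 FPKM in the light. All 7 root hair markers were higher in the dark library labelled DEX, where they summed to 45.0 FPKM against 4.11 with EtOH, 3.73 in Col-0 and 14.1 in bri1-116. In the light they summed to 120 FPKM with DEX and 55.0 to 73.5 FPKM in the other 3 libraries. The 2 seed storage markers (CRA1 and OLEO1) summed to 4.04 FPKM in light DAYi with DEX and to at most 1.22 FPKM elsewhere. With the dark Col-0 and bri1-116 libraries exchanged, the green shoot, PORA and root hair markers are lower in dark bri1-116. The part of these marker shifts in the values of the 10 genes was not tested.

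Counted at more than 2-fold, 0 of the 10 genes were higher and 0 lower in the dark DAYi library labelled DEX than with EtOH, where 9.36% of all entries above 0 in both libraries were higher and 12.2% lower. In the light, 1 was higher with DEX (BBX20) and 0 were lower, against 12.1% of all entries higher and 16.3% lower. In dark bri1-116, 1 was higher than in Col-0 (HYH) and 0 were lower, against 11.2% and 9.01% of all entries. In light bri1-116, 3 were higher (HYH, HY5 and BBX20) and 1 was lower (BBX22), against 6.52% and 7.82% of all entries. The members' median log2((FPKM+1)/(FPKM+1)) was -0.11, 0.34, -0.05 and -0.01 in these 4 comparisons, beside -0.004, 0.04, -0.03 and -0.04 over all entries at 1 FPKM or more in at least 1 of both libraries.

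How far apart untreated libraries can lie was read from DAYi with EtOH against Col-0. In the dark none of the 10 genes passed 2-fold in either direction, where 2.19% of entries were higher and 2.22% lower, and the widest difference was HYH, 1.55-fold lower in DAYi with EtOH. If the dark Col-0 and bri1-116 libraries are exchanged, 1 gene is called, HYH, which is then 6.46-fold lower in DAYi with EtOH. In the light 0 were higher and 1 was lower (LAF1), where 1.96% were higher and 2.18% lower, and the widest of the other 9 was BBX20, 1.24-fold higher. These controls come from different tables and differ in genotype and treatment, so they bound the spread between replicates only loosely.

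**Figure D2:**
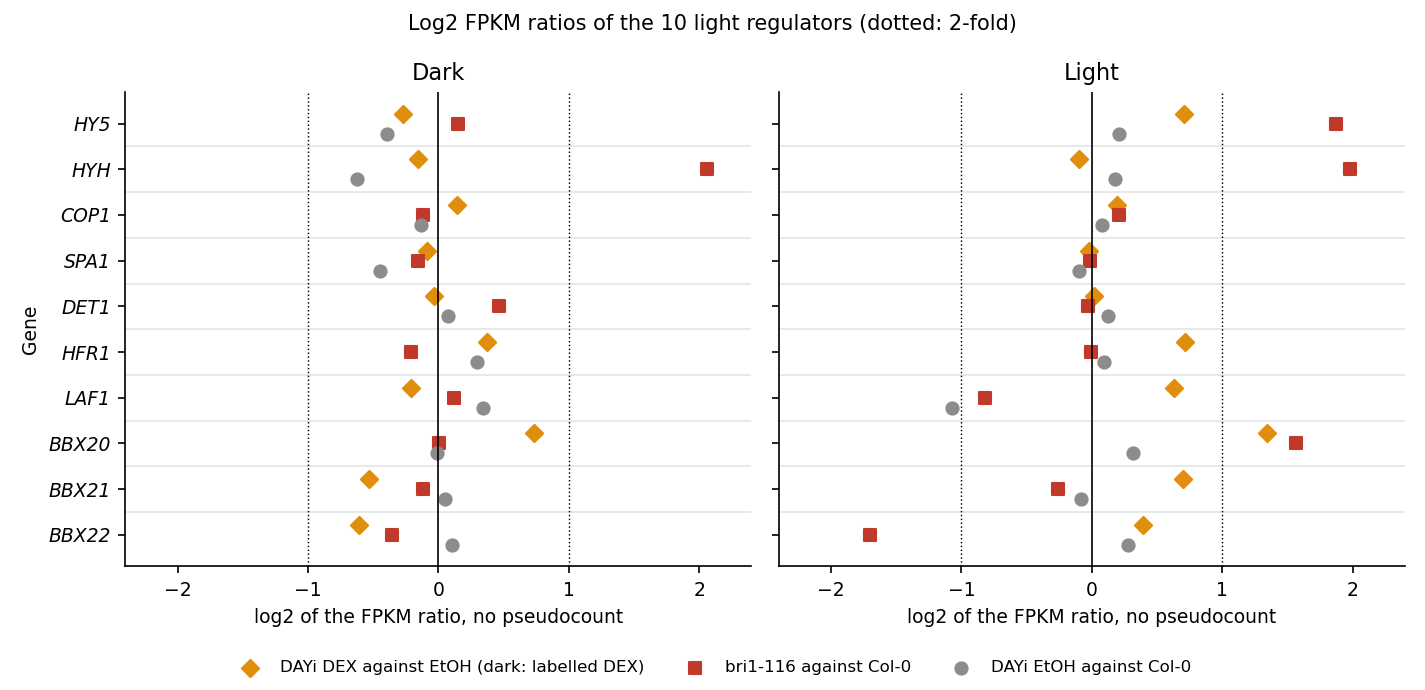
Log2 of the FPKM ratio without a pseudocount (x) for each gene (y), in the dark (left) and in the light (right); diamonds are DAYi labelled DEX (dark) or with DEX (light) against EtOH, squares bri1-116 against Col-0, circles the 2 controls against each other, and dotted lines mark 2-fold. In the light the squares of HY5, HYH and BBX20 lie beyond 2-fold to the right and that of BBX22 to the left, while COP1, SPA1 and DET1 stay inside the 2-fold lines in every comparison, the widest being DET1 in dark bri1-116 at 0.46.

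Between light and dark, 7 of the 10 genes had libraries that did not overlap. HYH, COP1 and SPA1 were higher in all 4 light libraries than in all 4 dark ones, and HFR1, LAF1, BBX20 and BBX21 were lower. Over the 20486 entries at 1 FPKM or more in at least 1 library, 15.2% had light libraries all above the dark ones and 17.2% all below. HY5, DET1 and BBX22 overlapped, HY5 and BBX22 through the light bri1-116 library alone. Without the dark library labelled DEX the count stayed at 7, without the light bri1-116 library it was 9, and without the dark Col-0 and bri1-116 libraries it was 8.

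Within each plant group, the genes beyond 2-fold in the light relative to the dark were 3 higher and 5 lower in DAYi with EtOH (21.2% and 19.8% of all entries), 3 higher and 2 lower in DAYi with DEX set against the dark library labelled DEX (14.9% and 13.2%), 3 higher and 4 lower in Col-0 (22.9% and 19.1%) and 2 higher and 4 lower in bri1-116 (15.3% and 12.7%). HYH, SPA1, HFR1 and BBX20 were called in the same direction in all 4 groups. The share of all entries called so in all 4 was not counted. With the dark Col-0 and bri1-116 libraries exchanged, HYH in light Col-0 was 1.17-fold above the dark, short of a call, which leaves 2 genes higher and 4 lower in Col-0, and in bri1-116 it was 19.3-fold above the dark. HY5 was lower in the light by 3.69-fold in Col-0 and 2.42-fold in DAYi with EtOH, but by 1.12-fold in bri1-116 and 1.23-fold between DAYi with DEX and the dark library labelled DEX. BBX22 was higher in the light by 2.098-fold in Col-0, 2.37-fold in DAYi with EtOH and 4.76-fold between DAYi with DEX and the dark library labelled DEX, and 1.21-fold lower in bri1-116. Light and dark values come from different tables, whose scaling factors over all entries lay between 0.973 and 1.03.

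**Figure D3:**
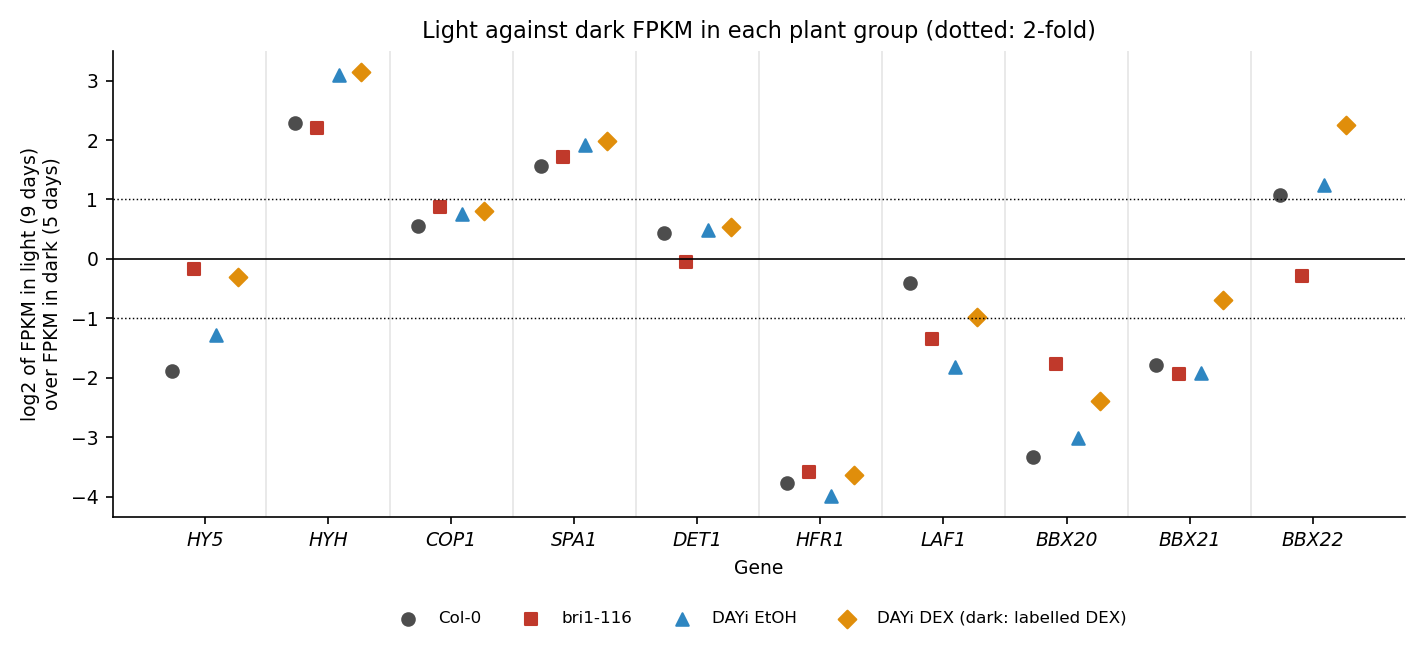
Log2 of the FPKM at 9 days in light over that at 5 days in the dark (y) for each gene (x), with 1 point per plant group and dotted lines at 2-fold. HFR1 lies lowest and HYH highest in all 4 groups, and HY5 is beyond 2-fold in the 2 controls but not in bri1-116 or between DAYi with DEX and the dark library labelled DEX. If the dark Col-0 and bri1-116 libraries are exchanged, HYH in Col-0 is 1.17-fold above the dark, below SPA1 at 3.30-fold.

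Ratios inside a library do not depend on scaling between tables. HY5 was 4.05 times HYH in dark Col-0, 4.77 times in DAYi with EtOH and 4.39 times in the library labelled DEX, but 1.08 times in dark bri1-116. Exchanging the dark Col-0 and bri1-116 libraries puts 1.08 on Col-0 and 4.05 on bri1-116. In the light the order was the other way round in all 4 libraries, with HY5 to HYH at 0.224 in Col-0, 0.208 in bri1-116, 0.230 in DAYi with EtOH and 0.403 in DAYi with DEX. Light bri1-116 thus had the ratio of its control although HY5 was 3.65-fold and HYH 3.94-fold higher. The summed FPKM of HY5 and HYH was 413 there, against 106 to 128 in the other light libraries and 55.5 to 154 in the dark.

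HY5 to COP1 was 4.56, 5.49, 3.80 and 2.85 in dark Col-0, bri1-116, DAYi with EtOH and DAYi labelled DEX. It was 0.846 in light Col-0, 2.67 in light bri1-116, 0.926 in light DAYi with EtOH and 1.32 with DEX. HFR1 to COP1 lay between 5.74 and 9.64 in the dark and between 0.261 and 0.442 in the light, with the DAYi library labelled or treated with DEX the highest each time. The transcript of HFR1 was therefore above that of COP1 in each dark library and below it in each light library.

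**Figure D4:**
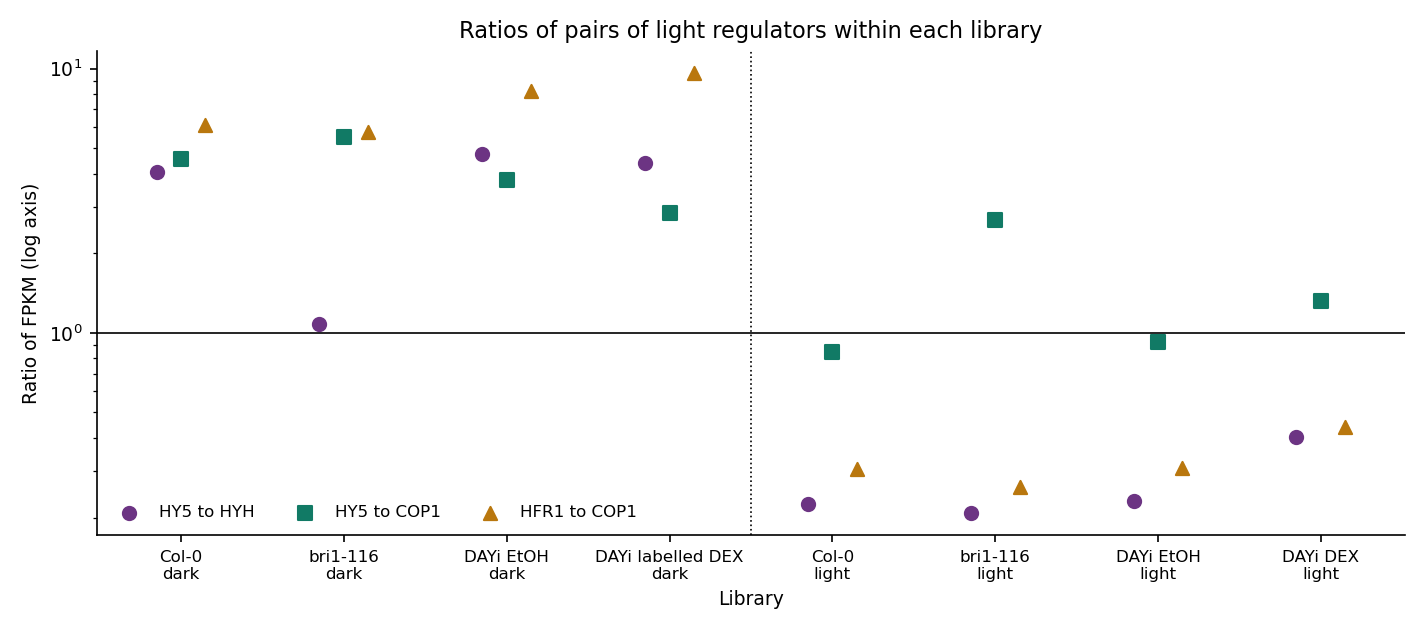
Ratio of FPKM on a log axis (y) for HY5 to HYH, HY5 to COP1 and HFR1 to COP1 in each library (x), with the dotted line between dark and light. HY5 to HYH is at 4.05 to 4.77 in 3 dark libraries, 1.08 in dark bri1-116 and 0.208 to 0.403 in the light; exchanging the dark Col-0 and bri1-116 libraries puts the 1.08 on Col-0.

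Ranked among all entries at 1 FPKM or more of its own library, HYH moved from the 56.5th percentile in dark Col-0 to the 89.3rd in light Col-0, and HY5 from the 89.0th to the 59.5th. In the library titled dark bri1-116 HYH was already at the 89.3rd percentile, so its move in Col-0 disappears if that pair is exchanged. COP1 moved from the 52.6th to the 64.7th, and SPA1 from the 53.2nd to the 81.0th. HYH was the most abundant of the 10 genes in light Col-0, light DAYi with EtOH and light bri1-116, where it was at the 97.8th percentile. It was second to BBX21 in light DAYi with DEX, at the 90.7th percentile against the 91.5th.

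The genes whose pattern was nearest to a member were found by the root mean square difference of centred log2(FPKM+1) over the 8 libraries, which fall into the same dark and light sets for every gene. For HY5 these were AT2G35750, which encodes a hypothetical protein (0.25), PROPEP4, a precursor of an elicitor peptide (0.29), and AT4G23590, a probable aminotransferase (0.30). PROPEP4 was at 3.10 FPKM in light Col-0 and 11.04 in light bri1-116, and at 6.03 and 11.6 in the dark. For HYH the nearest were farther off: MRU1 (0.52), AT4G18740 (0.54) and AT1G64500, a glutaredoxin-like protein (0.54). MRU1 was at 7.27 FPKM in light Col-0 and 25.3 in light bri1-116, and at 0.228 and 1.43 FPKM in the dark. For PROPEP4 and MRU1 the dark order turns if the dark Col-0 and bri1-116 libraries are exchanged.

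HFR1 was matched closely by AT4G11655 (0.16), AT4G23870 (0.16) and AT1G36640 (0.20), all listed as hypothetical proteins. AT4G23870 was at 78.4, 57.0, 107 and 158 FPKM in the dark and 6.34, 6.18, 6.71 and 11.6 FPKM in the light, in the order Col-0, bri1-116, DAYi with EtOH and DAYi labelled or treated with DEX. NUDX13, a nudix hydrolase, was nearest to BBX20 (0.17), at 8.24, 25.4, 10.1 and 26.5 FPKM in the light in the same order. Its high light libraries were also bri1-116 and DEX, which follows from its being chosen for nearness to BBX20. AT3G18535, a tubulin-tyrosine ligase, was nearest to BBX21 (0.13), AT5G11610, an exostosin family protein, to BBX22 (0.25), AT5G46450, a disease resistance protein of the TIR-NBS-LRR class, to SPA1 (0.14), and VPS28-2, a vacuolar sorting protein, to LAF1 (0.12). COP1 and DET1 spanned less than 1 on this scale and were not matched.

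The machinery around COP1 and DET1 stayed within 2-fold in each of the 4 comparisons between plants, as the repressors did. SPA2, SPA3, SPA4 and the COP10, DDB1A, DDB1B, CUL4 and RBX1A genes, which build the ligases of COP1 and DET1, had 0 of 8 members beyond 2-fold in either direction in each of the 4 comparisons. The COP9 signalosome, which keeps cullin ligases active, likewise had 0 of 10 in each direction. Over all entries, 6.52% to 12.1% were higher and 7.82% to 16.3% lower, depending on the comparison. The medians of log2((FPKM+1)/(FPKM+1)) of these 2 lists lay between -0.11 and 0.15. The widest differences were SPA3 in dark bri1-116 (1.61-fold higher, a direction that turns if the dark pair is exchanged), SPA4 in light bri1-116 (1.60-fold higher) and COP10 in the dark library labelled DEX (1.56-fold higher). SPA3 and SPA4 were the 2 of the 8 partners more than 2-fold higher in the light in every plant group. Of all entries, 14.9% to 22.9% were higher in the light, depending on the group, and the share higher in every group was not counted. SPA3 was at 6.93 FPKM in dark Col-0 and 32.3 in light Col-0, and SPA4 at 4.78 and 15.8.

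The other 29 genes of the B-box family included some beyond 2-fold in every comparison. In the dark DAYi library labelled DEX 0 were higher and 7 lower than with EtOH (9.36% and 12.2% of all entries), led by BBX23 at 8.89 against 68.2 FPKM, BBX28 at 18.9 against 64.7, and BBX24 at 22.0 against 73.1. With DEX in the light 0 were higher and 11 lower (12.1% and 16.3% of all entries), led by BBX3 at 16.4 against 139 FPKM, BBX16 at 6.63 against 51.4 and BBX27 at 4.85 against 31.1. BBX20, BBX21 and BBX22 were higher with DEX in that comparison, by 2.53-fold, 1.62-fold and 1.31-fold, of which the first passed 2-fold. In dark bri1-116 5 were higher and 0 lower (11.2% and 9.01%), among them BBX14 at 106 against 29.6 FPKM, BBX25 at 15.1 against 3.91 and BBX15 at 47.6 against 18.8. In light bri1-116 3 were higher and 3 lower (6.52% and 7.82%), with BBX32 at 50.4 against 14.3 FPKM, BBX1 at 2.69 against 0.437 and BBX7 at 5.85 against 2.22 on the higher side. BBX27 was lower there, at 8.80 against 20.8 FPKM. Between 2 and 5 of the 29 were at 0 in a library of a comparison and could not be counted. With both libraries at 1 FPKM or more the lower calls were 4 in the dark library labelled DEX and 9 with DEX in the light, the higher calls 4 in dark bri1-116, and in light bri1-116 2 were higher and 2 lower. The medians of the 29 were -0.02, -0.54, 0.15 and 0 in the order in which the comparisons are given here.

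Known HY5 targets were counted over 12 genes, the entry that holds PAP1 being left out because it joins several loci. In the dark DAYi library labelled DEX 1 was higher and 8 lower (9.36% and 12.2% of all entries), with RBCS1A at 624 against 2542 FPKM, LHCB1.3 at 692 against 2287, CHS, the chalcone synthase gene, at 0.0775 against 2.31, and RUP1, a repressor of the UV-B response, at 14.2 against 4.18. With both libraries at 1 FPKM or more, 6 of the 12 targets were left. Among these, 2 lower calls remained, RBCS1A and LHCB1.3, which are also green shoot markers. The other 6 lower genes had at least 1 library below 1 FPKM. The share of all entries at that threshold was not counted. With DEX in the light 0 were higher and 6 lower (12.1% and 16.3% of all entries), with LHCB1.3 at 3477 against 18706 FPKM, ELIP2 at 42.8 against 205 and PSY, the phytoene synthase gene, at 92.6 against 318. At 1 FPKM or more in both libraries, 5 of the 11 targets left were lower. HY5 itself was 1.63-fold higher in that library.

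In dark bri1-116, where HY5 was 1.11-fold and HYH 4.18-fold above Col-0, 9 of the 12 targets were higher and 0 lower (11.2% and 9.01% of all entries). With both libraries at 1 FPKM or more, 7 of the 9 targets left were higher. CHS was at 18.6 against 1.60 FPKM, LHCB1.3 at 14221 against 2534, ELIP2 at 31.2 against 6.45 and ELIP1 at 20.03 against 4.51. Exchanging the dark Col-0 and bri1-116 libraries turns these 9, and the 5 B-box genes above, into lower values. In light bri1-116, where both HY5 and HYH were higher, 2 targets were higher and 2 lower (6.52% and 7.82% of all entries). MYB12 was at 13.7 against 3.69 FPKM and MYB111 at 11.9 against 3.30, both encoding flavonol regulators, and LHCB1.3 was at 7856 against 20498 and ELIP1 at 101 against 204. The medians of the 12 were -0.67, -0.74, 1.21 and 0.06.

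**Figure D5:**
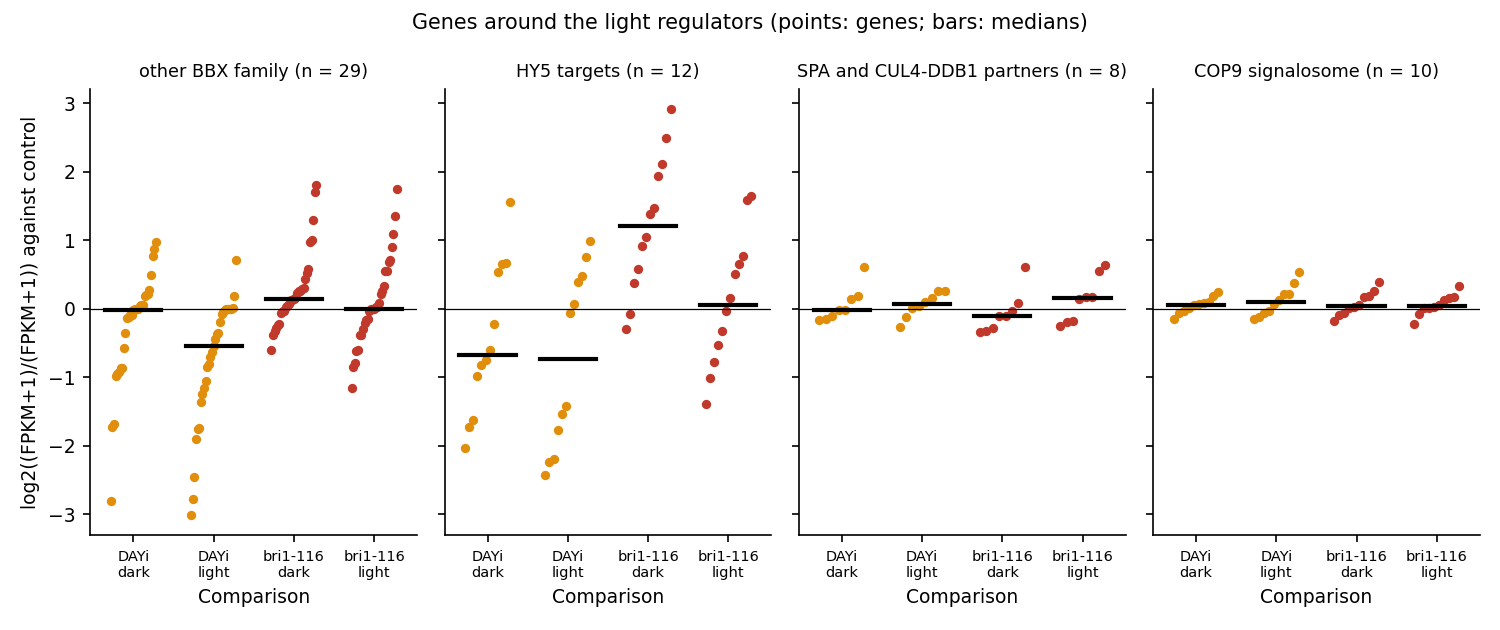
Log2((FPKM+1)/(FPKM+1)) against the control (y) in the 4 comparisons (x) for the other B-box genes, known HY5 targets, the SPA and CUL4-DDB1 partners and the COP9 signalosome; points are genes and bars medians. The first and second panels spread from about the level of BBX3 with DEX in the light (-3.00) to that of CHS in dark bri1-116 (2.91), while the other 2 panels stay close to 0.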

How the data were processed

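Whole-seedling mRNA was sequenced in 8 libraries. By the methods and the submitters' processing notes, stranded libraries were run on a NextSeq500, and CASAVA 1.8.2 (base calls), TopHat2 2.0.13 (alignment, TAIR10) and Cuffdiff 2.2.0 (FPKM) were applied. The authors deposited FPKM per gene and library in 4 full tables, 1 per comparison. The 12 shorter tables, and the authors' deposited fold changes, p-values and q-values, were not used. Whether FPKM were scaled jointly across tables is not given in the sources used here, and 1 entry and 1 upstream window are not reported here.

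A gene was called when both FPKM were above 0 and more than 2-fold apart. Log2 values with a pseudocount used 1 FPKM, which understates the difference of low genes. The 10 members and all lists were chosen with earlier results of these data known. The text named, per list and comparison, at most the 4 largest differences beyond 2-fold, and, per member, up to 3 nearest patterns. SPA3 and SPA4, and the nearest patterns whose FPKM are printed, were picked after their values were seen. File starts count from 0 and were raised by 1.

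Fragment counts were estimated from the spacing of low FPKM at 2672 intronless entries of at least 900 bp, after taking 150 bases off each length, with settings chosen after the values were seen. An FPKM of 1 on 1 kb then stood for 43.9 to 117 fragments. The depth taken was the best-scoring of a range of trial values. In the 8 libraries 47.8 to 59.0% of those FPKM values fell within 0.15 of a whole number, and part of them would do so at any depth. The depth and the fragment counts are therefore approximate, and they cover counting error only. Calls and depth were tested on simulated data. Entries at 1 FPKM or more numbered 18521 to 18892. Promoter windows came from the TAIR10.1 genome and RefSeq annotation. Python 3.11.15, pandas 2.3.3, numpy 2.4.6 and matplotlib 3.10.9 were used.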

Additional observations from a re-analysis of the deposited data

Results flagged for a closer look

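HYH differed between the DAYi and the bri1-116 comparison in both light conditions: log2((FPKM+1)/(FPKM+1)) was -0.14 in the DAYi library labelled DEX and 2.004 in bri1-116 in the dark, a gap of 2.14, and -0.10 and 1.97 in the light, a gap of 2.07. BBX22 differed in the light, at 0.38 with DEX and -1.60 in bri1-116, a gap of -1.98. Each was singled out because the 2 values had opposite signs and at least 1 of them passed 2-fold. For HYH the DAYi values were small. Between the 2 controls, DAYi with EtOH against Col-0, HYH was at -0.59 in the dark and 0.17 in the light, farther from no change. With 1 library per condition the difference itself was not tested. With the dark Col-0 and bri1-116 libraries exchanged, HYH is at -2.004 in dark bri1-116, and both dark comparisons run lower.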

How the results depend on the processing

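Of the alternative counts and within-library ratios, 45 stayed within 1.5 times the main value and 9 did not. Of the log2 ratios, none changed sign with 0.1 FPKM added or without a pseudocount, and 1 of 40 did with median-ratio scaling (DET1 with DEX in the light, at 0.01 before). By construction all 10 change sign when the dark Col-0 and bri1-116 libraries are exchanged. With 1.5-fold in place of 2-fold, the genes counted became 2 in the dark DAYi comparison, 5 in light DAYi, 1 in dark DAYi with EtOH against Col-0 and 8 for DAYi with DEX against the dark library labelled DEX. The exchange of dark Col-0 and bri1-116 turned HYH to -2.004 on the log2 scale and its call in dark bri1-116 from higher to lower, left 6 genes called in place of 7 for light against dark in Col-0, and 1 gene instead of 0 was counted in dark DAYi with EtOH against Col-0. The 1 gene counted between the light controls (LAF1) was lost, leaving 0, with 1 FPKM added or with both libraries held to 1 FPKM or more. Median-ratio scaling changed no count of calls by over 1.5 times and turned no direction of a called gene. No paired analysis was possible because each condition has 1 library. The alternatives on which libraries enter the count of genes without overlap, and the list counts at 1 FPKM or more, were chosen after seeing the data. Depth limits LAF1 most.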
